A study of Ovis aries with 15 samples.

Results

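The genes described here encode the molecules that display peptides on the cell surface, the machinery that loads them, and their regulators. They were chosen by gene description and symbol. Of the 25592 genes in the deposited table, 26 have "histocompatibility" in their description, and 8 more were added by symbol among B2M, CD74, CIITA, NLRC5, TAP1, TAP2, TAPBP, PSMB8 and PSMB9, 1 of which the description already held. The set has 34 genes, of which 31 passed the expression filter described below and 3 did not.

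Major histocompatibility complex (MHC) class I molecules are made of a heavy chain and beta-2-microglobulin and are found on almost all nucleated cells. Their peptides are cut by the proteasome, carried into the endoplasmic reticulum by the TAP transporter and loaded with the help of tapasin. Class II molecules are made of an alpha and a beta chain, are guided by the invariant chain CD74, exchange their peptide with the help of DM, and are made mainly by dendritic cells, macrophages and B cells. NLRC5 and CIITA are the transcriptional coactivators of the class I and class II genes, and interferon-gamma is a well-known inducer of both routes.

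The data are bulk RNA-seq of kidney from male sheep, Dorper × Small-tailed Han crosses of 4 months, fed a total mixed ration for 21 d. The CON group received the ration alone. The AFB1 group had aflatoxin B1, a mould toxin, added at 500 µg/kg of dry matter. The AFB1_CUR group was given that dose of AFB1 plus curcumin (CUR), a turmeric polyphenol, at 800 mg/kg of dry matter. Each group held 6 sheep and 5 libraries, and no library received CUR without AFB1. The sheep shared pens, and which libraries came from the same pen is not given in the sources used here.

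Total counts ran from 50255295 to 68747047 over the 15 libraries. The library labelled AFB1 replicate 1 went against its tissue label. The summed level of 6 hepatocyte genes was 39961 FPKM there, against 39.2 to 315 in the other 14 libraries, and the summed level of 5 proximal tubule genes was 0.664 against 553 to 1446. FPKM, the read fragments of a gene scaled by its length and by the depth of the library, is a level per length, so levels can be set side by side between genes. This library was kept out of every mean and of the main fit, which left 4 AFB1 libraries, and its values are given apart. In AFB1 replicate 2 and AFB1_CUR replicate 2 the summed level of 6 B cell genes was 50.0 and 169 FPKM, against 2.01 to 10.7 in the other 12 libraries of the main fit. These were noted after the data had been seen, and results that rest on them are given with and without them.

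Coordinates are those of the deposited table, whose gene starts equal those of the sheep assembly ARS-UI_Ramb_v3.0 for 24917 of 24947 genes matched by symbol. On chromosome 20 lay 26 of the 34 genes, in 3 stretches. The first, chr20:7211101-7636371, held 12 genes: the DM and DO chains, DYA (DQ alpha 2-like), LOC101108961 (DR beta-like) and LOC101115073, TAP1, TAP2, PSMB8, PSMB9 and TAPBP. The second, chr20:25240175-25463155, held the 5 other DR and DQ rows, and the third, chr20:26864666-27665301, held 8 class I heavy chain rows and LOC132658250. The deposited table describes LOC132658250 as a heavy chain, but RefSeq lists it as a lncRNA; it overlaps the heavy chain row LOC114109630 on the opposite strand. In ruminants the class II region is known to be split by an inversion, with the DM and DO genes on one side and the classical DR and DQ genes on the other. TAP1 (chr20:7329386-7338199) and PSMB9 (chr20:7338703-7345197) run in opposite directions with 503 bp between their starts. The other 8 genes were elsewhere, among them B2M on chr7:101114136-101120355, CD74 on chr5:59511696-59519484, CIITA on chr24:10069025-10135018 and NLRC5 on chr14:24597705-24688999.

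Class I heavy chain rows are close copies of each other, and reads that match several copies may have been split or dropped when they were counted, so the level of each single row is uncertain. The same holds for the DQ beta rows, since LOC101118514 (chr20:25240175-25305385) contains the whole of LOC101120392 (chr20:25292255-25305385) on the same strand and also spans DQA (chr20:25267003-25278298) on the opposite one. Reads may likewise have been shared between the DR beta rows, LOC101114758 and OVAR-DRB1. Which alleles each sheep carried is not stated in the sources, and how far they changed the share of reads aligned to each row was not tested.

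The most abundant of the 34 genes was CD74, with a mean of 289 FPKM over the 14 libraries, just ahead of B2M with 287. B2M was at 263, 334, 247, 187 and 210.3 FPKM in CON replicates 1 to 5, at 452, 324, 301 and 137 in AFB1 replicates 2 to 5, and at 218, 491, 233, 227 and 395 in AFB1_CUR replicates 1 to 5. CD74 was at 293, 336, 233, 172 and 132 FPKM in CON, at 524, 327, 279 and 129.7 in AFB1, and at 167, 639, 269, 224 and 319 in AFB1_CUR, in the same order. For both genes the groups overlapped, with AFB1_CUR replicate 2 highest and AFB1 replicate 5 lowest of the 14. In AFB1 replicate 1, the library with hepatocyte genes, B2M was at 476 FPKM and CD74 at 178.

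**Figure D1:**
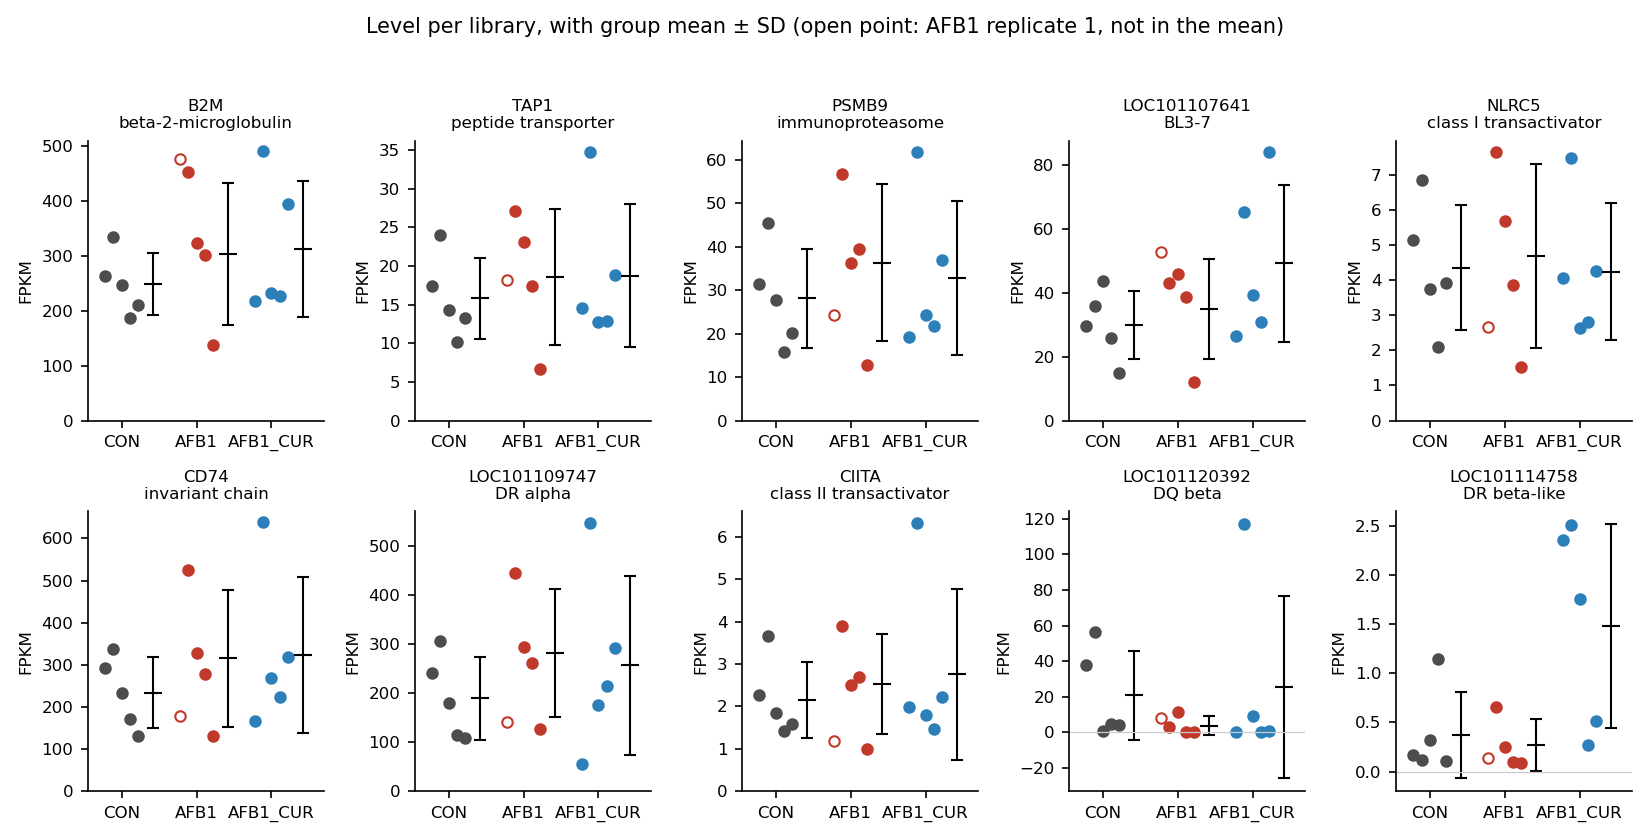
Level of 10 genes in FPKM in each library, by group, with the group mean and SD beside the points. The open point is AFB1 replicate 1, which is in no mean; the groups overlap in every panel, and LOC101114758 is at 1.76 FPKM or more in 3 AFB1_CUR libraries, against at most 1.15 in CON and 0.652 in AFB1.

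The other genes of the class I route were expressed at lower levels and followed the same libraries. Tapasin (TAPBP), which holds empty class I molecules at the transporter, had a mean of 48.1 FPKM (33.7 to 84.6). PSMB8 and PSMB9, the immunoproteasome subunits that replace their constitutive counterparts, had means of 42.4 and 32.1 FPKM, and the transporter subunits TAP1 and TAP2 had 17.7 and 19.0. TAP1 was at 17.4, 24.0, 14.3, 10.2 and 13.3 FPKM in CON, at 27.1, 23.1, 17.4 and 6.72 in AFB1 replicates 2 to 5, and at 14.6, 34.8, 12.7, 12.9 and 18.9 in AFB1_CUR. The CON range lay within the AFB1 range and overlapped the AFB1_CUR range. Within a library TAP2 stood at 90.0% to 141% of TAP1, and PSMB9 at 133% to 227% of TAP1, so these neighbours differed less from each other than either did between libraries, where TAP1 spanned 5.18-fold.

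The 8 class I heavy chain rows on chromosome 20 were all tested. LOC101107641 (chr20:27176996-27205435, described as class I antigen BL3-7) had the highest mean of them, 38.2 FPKM. It was at 29.7, 35.7, 43.6, 25.7 and 15.0 FPKM in CON, at 43.0, 46.0, 38.8 and 12.1 in AFB1 and at 26.6, 65.2, 39.4, 30.8 and 83.9 in AFB1_CUR. LOC101104866 (chr20:26929777-26932794, BL3-6) followed with 30.7 FPKM and LOC101107908 (chr20:27584157-27620637) with 22.5. LOC132658253 (chr20:27661674-27665301) averaged 19.3 FPKM and spanned 35.0-fold, from 2.60 in AFB1 replicate 5 to 90.9 in AFB1_CUR replicate 2. The make-up of the summed signal of these 8 rows also changed from library to library. That sum leaves out OVAR, a class I row outside the set, which had a mean of 370 FPKM over the 14 libraries. LOC101107641 gave 17.5% to 46.7% of the summed level of the 8 rows, LOC101104866 11.8% to 33.2%, and LOC132658253 6.40% to 28.4%. The lncRNA row LOC132658250 ranged from 0.956 to 5.57 FPKM.

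The class I-like genes outside chromosome 20 had a narrower range. LOC101102078 encodes MR1, which presents vitamin B metabolites to innate-like T cells, and ranged only from 4.12 to 5.94 FPKM (1.44-fold). It was the one tested gene of the set whose spread within groups lay below the median of all tested genes. LOC101112480 (chr5:38138716-38171569, described as Q10-like) was at 4.79, 4.90, 6.18, 4.30 and 9.40 FPKM in CON, at 8.32, 4.81, 4.72 and 3.58 in AFB1, and at 10.5, 6.05, 8.22, 7.41 and 8.28 in AFB1_CUR. In this gene AFB1_CUR replicate 1, not replicate 2, was highest. HM13, a signal peptide peptidase whose description names a minor histocompatibility antigen, averaged 28.6 FPKM, and ARHGAP45, a GTPase-activating protein that carries the HA-1 antigen, averaged 7.51.

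Among the class II rows the DR alpha chain, LOC101109747 (chr20:25458436-25463155), stood far above the others with a mean of 239 FPKM. It was at 239.7, 306, 179, 114 and 108 FPKM in CON, at 445, 293, 261 and 126 in AFB1, and at 54.4, 545, 175, 215 and 291 in AFB1_CUR. AFB1_CUR thus held both the lowest and the highest of the 14 libraries. The DM chains, which catalyse peptide exchange on class II molecules, averaged 15.9 FPKM for alpha (LOC101116099) and 16.2 for beta (LOC101109746). The DO chains, which modulate DM, averaged 5.17 for alpha (LOC101110545) and 2.79 for beta (LOC101109219). The 3 rows that missed the filter, LOC101108961, DYA and LOC101115073, all class II and all in the first stretch, reached at most 1.63, 0.409 and 0.344 FPKM, and the highest of these was in AFB1_CUR replicate 2.

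The coactivators were expressed at low levels. NLRC5 was at 5.14, 6.87, 3.74, 2.102 and 3.93 FPKM in CON, at 7.66, 5.68, 3.86 and 1.52 in AFB1 and at 4.05, 7.47, 2.65, 2.81 and 4.26 in AFB1_CUR. CIITA was at 2.26, 3.65, 1.83, 1.41 and 1.58 FPKM in CON, at 3.89, 2.51, 2.69 and 0.997 in AFB1 and at 1.99, 6.32, 1.79, 1.46 and 2.21 in AFB1_CUR. Both were lowest in AFB1 replicate 5; NLRC5 was highest in AFB1 replicate 2 and CIITA in AFB1_CUR replicate 2.

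The differences between libraries of one group were larger for these genes than for most. The SD within groups of log2(FPKM + 1) had a median of 0.70 over the 31 tested genes, against 0.24 over all 13394 tested genes, and 30 of the 31 lay above that median. It was 0.76 for the 9 tested class II chains, 0.79 for the 8 class I heavy chains and 0.57 for the 6 genes of the class I route. AFB1_CUR replicate 2 was the highest of the 14 libraries for 26 of the 31 genes, and for 34.5% of all tested genes. AFB1 replicate 5 was the lowest for 19 of the 31, and for 24.0% of all tested genes. AFB1 replicate 2 exceeded all 12 libraries other than AFB1_CUR replicate 2 for 18 of the 31 genes, and for 22.1% of all tested genes.

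**Figure D2:**
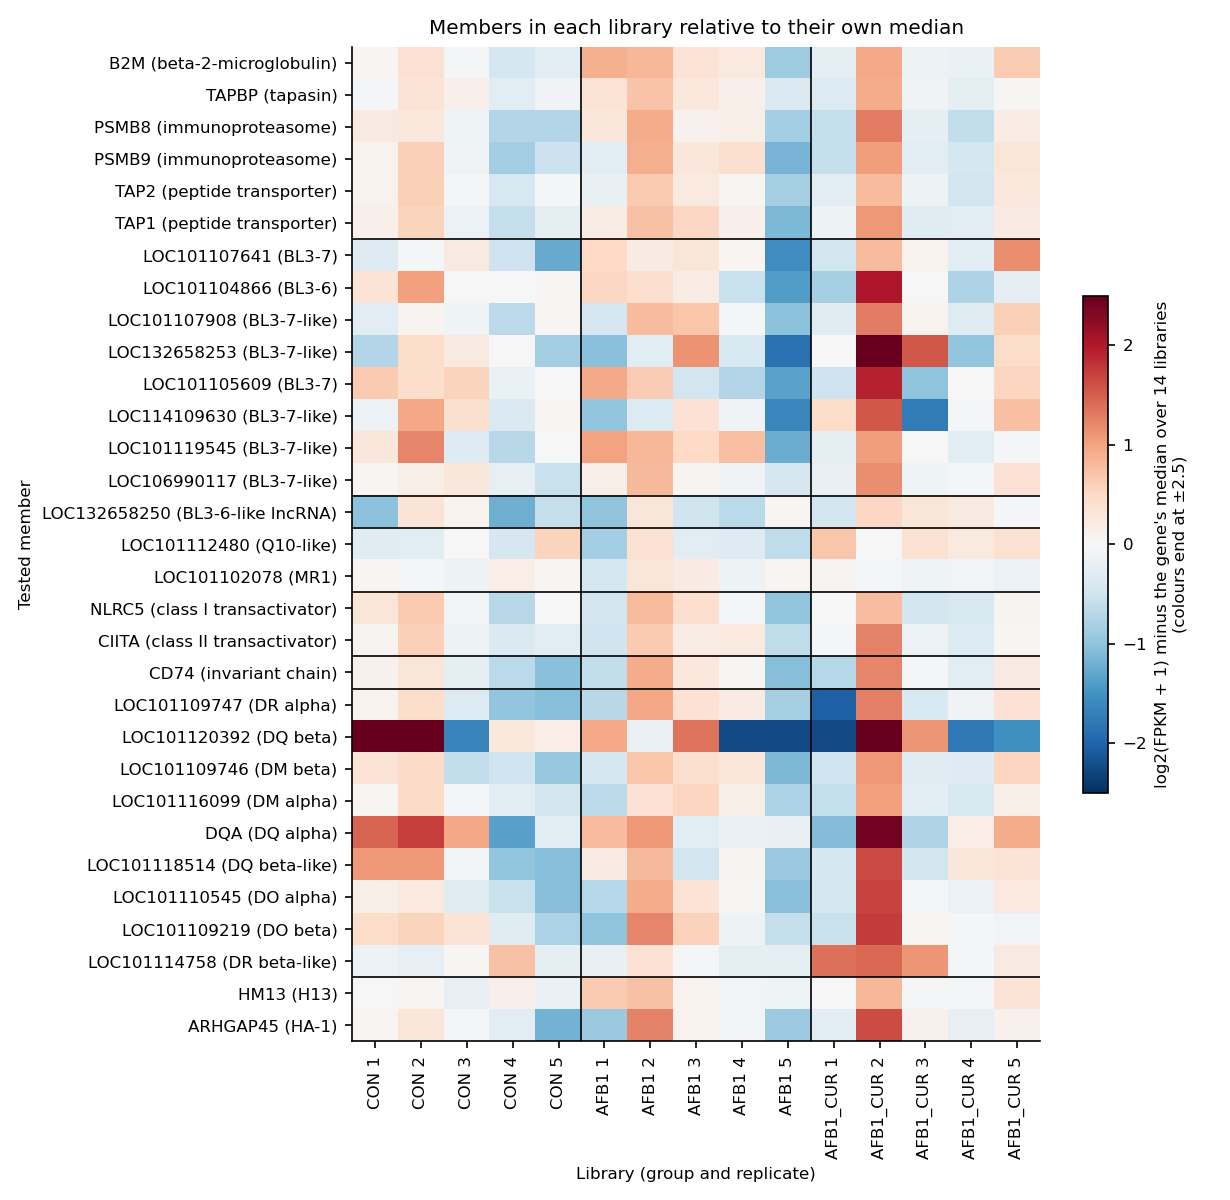
Tested genes (rows, by role) in the 15 libraries (columns, by group), coloured by log2(FPKM + 1) minus the gene's median over the 14 libraries. AFB1_CUR replicate 2 is red in nearly every row and AFB1 replicate 5 blue in most, while MR1 and LOC101112480 are not highest in AFB1_CUR replicate 2.

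Cell type genes moved with the 2 high libraries. AFB1 replicate 5 was not the lowest in the summed leukocyte genes, at 28.2 FPKM against 14.4 in CON replicate 5, nor in those of macrophages and dendritic cells (60.5 against 52.3) or of T and NK cells (24.3 against 14.8). The summed level of 4 leukocyte genes was 119 FPKM in AFB1 replicate 2 and 191 in AFB1_CUR replicate 2, against 14.4 to 53.5 in the other 12 libraries. For 8 T and NK cell genes it was 107 and 136, against 14.8 to 55.6, and for 11 macrophage and dendritic cell genes 208 and 298, against 52.3 to 149. The 5 endothelial genes did not separate them, at 129 and 130.3 against 83.9 to 137. In AFB1_CUR replicate 2 the 5 proximal tubule genes summed to 553 FPKM, against 657 to 1446 in the other 12, and 5 genes of the loop and collecting duct to 546, against 720 to 2460. In each list 3 of the 5 genes lay below all of the other 12 libraries and 2 within their range. In AFB1 replicate 2 these sums were 666 and 2482, the latter carried mainly by UMOD at 1734 FPKM. In bulk tissue more cells of a type and more RNA per cell cannot be told apart, and the part of any of these cells in the levels of the MHC genes was not tested. Without the pair of libraries the median SD within groups was 0.52 for the 31 genes and 0.21 for all tested genes, and 29 of the 31 still lay above the latter.

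The first comparison asks what AFB1 in the feed did to these genes. None of the 31 was called higher or lower in AFB1 than in CON by edgeR's quasi-likelihood test. A call needed an unadjusted p below 0.05 together with a change of over 1.5-fold, as in the screening of the study. Among all 13394 tested genes 1.78% were called, 0.672% higher and 1.1% lower. None of the 31 had an unadjusted p under 0.05, and DESeq2 and limma also called 0. The estimate was above 0 for 23 of the 31, with a median log2 fold change of 0.19 against 0.02 over all tested genes. It was 0.40 for CD74 (95% interval -0.42 to 1.21), 0.26 for B2M (-0.34 to 0.86), 0.55 for the DR alpha chain LOC101109747 (-0.48 to 1.58) and 0.20 for TAP1 (-0.52 to 0.93). The intervals of all 31 genes include no change, and those of CD74 and LOC101109747 reach past a log2 fold change of 1.

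The AFB1 result depended on single libraries. Without AFB1 replicate 2 the median log2 fold change of the 31 genes was 0.01, and LOC101105609, a BL3-7 heavy chain row, was called lower (-1.29, unadjusted p = 0.0362) among 231 of all tested genes. Without AFB1 replicate 5 the median was 0.42, and LOC101107908 was called higher (0.66, unadjusted p = 0.0483) among 470. Without AFB1 replicate 2 and AFB1_CUR replicate 2 together the median was 0.01, and the called rows were LOC101105609 (-1.29) and LOC101104866 (-0.81), both lower in AFB1, among 275 of all tested genes. With all 15 libraries 4.99% of tested genes were called, and of the 31 only HM13 (0.59, unadjusted p = 0.0369). HM13 was at 41.4 FPKM in the added library, AFB1 replicate 1, above all 5 CON libraries (22.2 to 28.1).

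The second comparison asks what CUR did in sheep that received AFB1. LOC101114758 (chr20:25414244-25431395), described as a DR beta chain-like gene, was the only one of the 31 called, and it was higher in AFB1_CUR than in AFB1. Of all tested genes 0.993% were called, 0.448% higher and 0.545% lower, and a count of 1 among 31 genes is too small to tell from that share. LOC101114758 was at 0.652, 0.247, 0.0935 and 0.0847 FPKM in AFB1 replicates 2 to 5 (143, 65, 21 and 22 counts), and at 2.35, 2.51, 1.76, 0.266 and 0.511 in AFB1_CUR (632, 582, 404, 60 and 135 counts). AFB1_CUR replicates 1 to 3 lay above every AFB1 library, and replicates 4 and 5 lay within the AFB1 range. The row reached 1 FPKM in 4 of the 14 libraries, the fewest the filter allows, of which 3 were AFB1_CUR, 1 was CON and 0 were AFB1. It was therefore tested only through libraries in which it was high, and the call is no independent sign of a difference; in AFB1_CUR replicate 1, one of these, the other DR beta row was low relative to DR alpha, as given further on. The log2 fold change was 2.43 (SE 0.89, unadjusted p = 0.0170), and with the Benjamini-Hochberg adjustment over all tested genes it did not pass (edgeR adjusted p = 0.9999). Under the 18 alternatives the log2 fold change ran from 0.87 to 3.25. The filter was not applied again when a library was left out: without AFB1_CUR replicate 1, 2 or 3 the row would reach 1 FPKM in 3 libraries and would not be tested.

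The other 30 genes were not called between AFB1_CUR and AFB1. CD74 had a log2 fold change of -0.04 (95% interval -0.85 to 0.78), B2M -0.02 (-0.62 to 0.58), LOC101109747 -0.22 (-1.26 to 0.81) and TAP1 -0.05 (-0.78 to 0.67), and the median over the 31 was 0.04. MR1 (LOC101102078) had an unadjusted p of 0.0332 but a fold change too small for a call (log2 fold change -0.27). LOC101112480 lay just outside the limit (0.57, unadjusted p = 0.0502). It was called higher in AFB1_CUR with all 15 libraries (0.59, unadjusted p = 0.0322), where 4.05% of all tested genes were called. It was also called without AFB1 replicate 2 (0.80), without AFB1_CUR replicate 2 (0.69) or without both (0.93, unadjusted p = 0.00313). Those fits called 288, 217 and 231 of all tested genes. Without AFB1 replicate 2, LOC101105609 was called higher as well (1.41), with 288 of all tested genes called. Without AFB1_CUR replicate 3, LOC101105609 (1.10) and LOC114109630, another heavy chain row, were called higher, with 163 of all tested genes called. LOC132658253 was called without AFB1 replicate 3 (2.05) and without AFB1_CUR replicate 4 (1.56), against 1.29 in the main fit (unadjusted p = 0.0895). Those 2 fits called 145 and 140 of all tested genes.

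The third comparison sets AFB1_CUR against CON and shares libraries with each of the other comparisons. LOC101114758 was again the only gene of the 31 called. It was at 0.172, 0.120, 0.316, 1.15 and 0.103 FPKM in CON (49, 31, 88, 240 and 24 counts), and its log2 fold change was 1.87 (SE 0.80, unadjusted p = 0.0356, edgeR adjusted p = 0.816). Of all tested genes 1.75% were called, 1.12% higher and 0.635% lower. The call lay near the limit on p. It was lost without any of CON replicates 1, 2, 3 or 5 or AFB1_CUR replicates 1, 2 or 3, with log2 fold changes from 1.59 to 1.82 and unadjusted p from 0.0577 to 0.0820, and without AFB1 replicate 2 and AFB1_CUR replicate 2 together (1.69, unadjusted p = 0.0546). Without CON replicate 4, the CON library highest in this row, the log2 fold change was 2.96 (unadjusted p = 0.00189). The row would then reach 1 FPKM in 3 libraries, all AFB1_CUR, and would not be tested, so this p is no independent sign of a difference.

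Estimates of AFB1_CUR against CON were above 0 for 26 of the 31 genes, with a median of 0.24 against -0.003 over all tested genes. Without AFB1_CUR replicate 2 they were above 0 for 13 of the 31, with a median of -0.13. For LOC101104866 that library turned the direction, from 0.02 with it to -0.81 without it (unadjusted p = 0.0243), since the row was at 105 FPKM in that library and at 13.7 to 25.2 in the other 4 of the group, against 25.1 to 52.4 in CON. LOC132658253 stood at 1.39 (unadjusted p = 0.0539) and was called in 7 alternatives. These were all 15 libraries (1.41, unadjusted p = 0.0483), where 1.11% of all tested genes were called, DESeq2 (1.39, unadjusted p = 0.0490), no filter on low values, only the 2 compared groups, and the fits without AFB1_CUR replicate 1, 4 or 5 (1.54 to 1.65). The fits that left out a library called 335, 333 and 292 of all tested genes, in that order. The log2 fold change of LOC132658253 was 0.66 without the pair of libraries high in B cell genes.

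**Figure D3:**
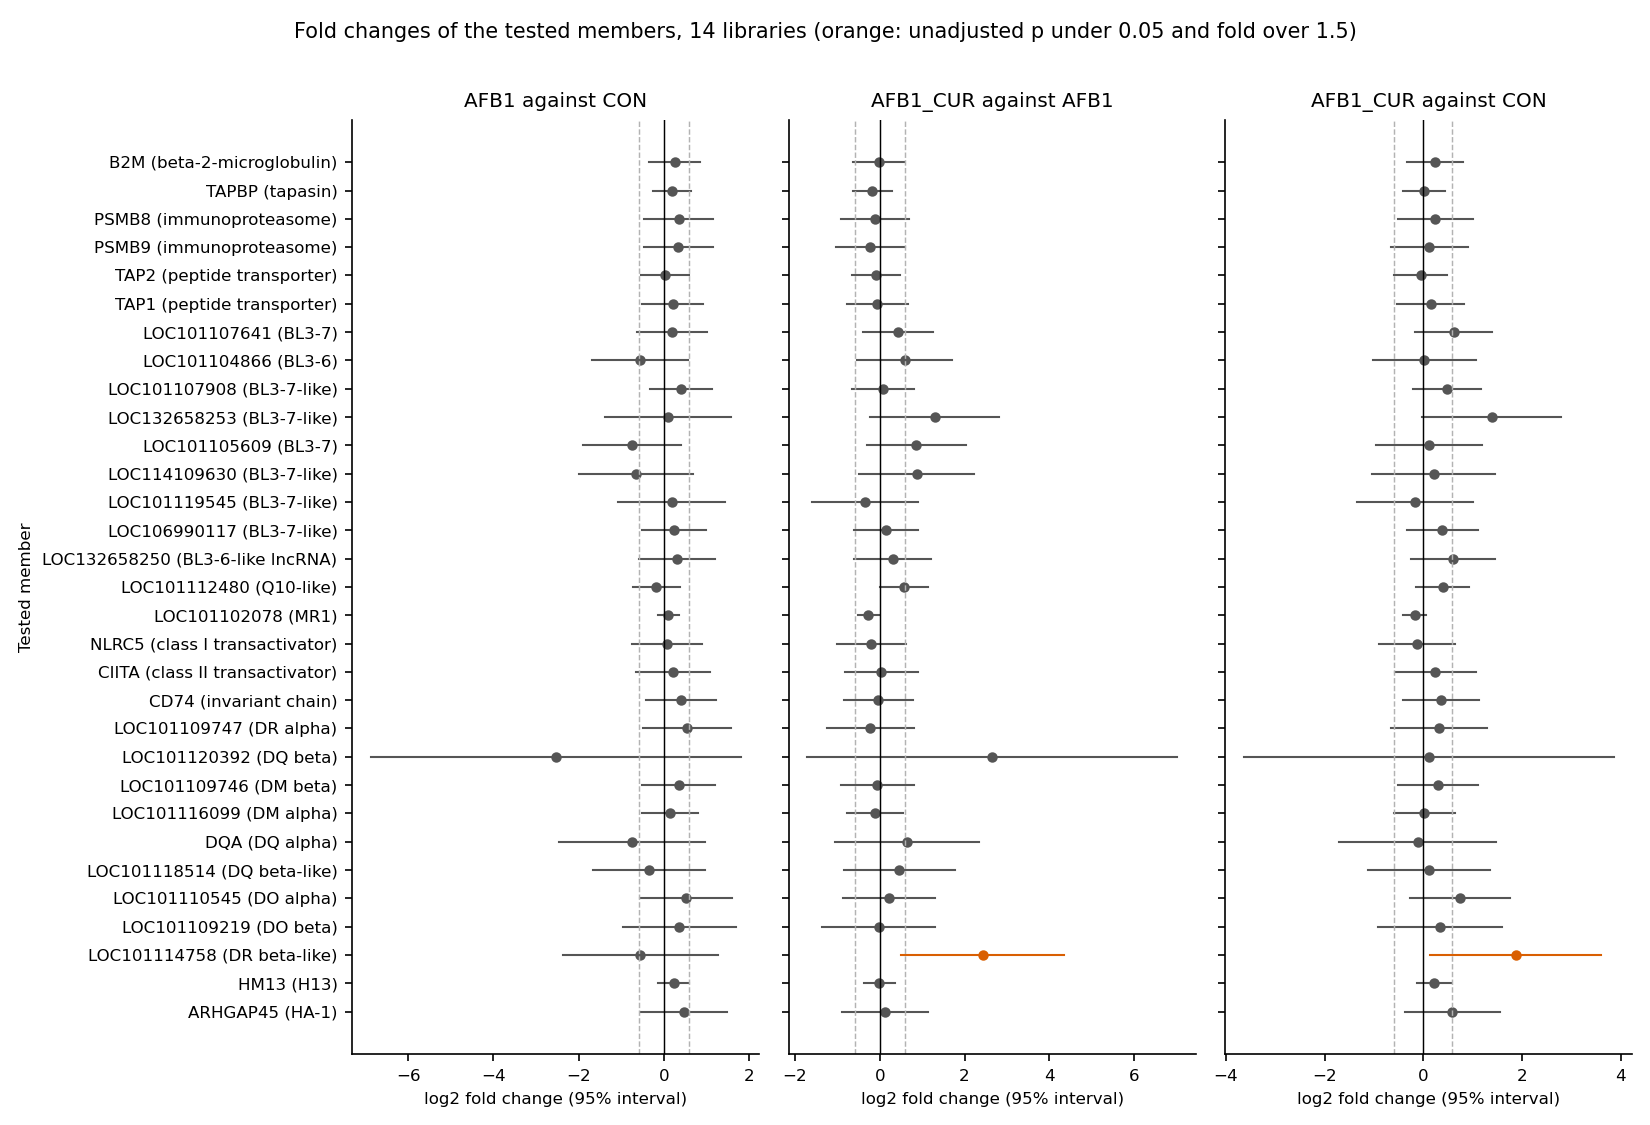
Log2 fold changes of the 31 tested genes with 95% intervals from edgeR in the 3 comparisons, 14 libraries, with dashed lines at a fold change of 1.5 and a separate scale in each panel. Orange marks LOC101114758, the only gene called, in AFB1_CUR against AFB1 (2.43) and in AFB1_CUR against CON (1.87); the interval is widest for the DQ beta row LOC101120392.

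Other genes of the antigen presentation pathway, a list of 48 of which 46 were in the table and 44 tested, gave a similar picture. By edgeR none was called between AFB1 and CON or between AFB1_CUR and AFB1, where 2 and 0 had an unadjusted p under 0.05. For AFB1_CUR against AFB1, DESeq2 called 1, LGMN, a lysosomal endopeptidase, as lower (unadjusted p = 0.0397) among 165 of all tested genes. By edgeR it was called too without AFB1_CUR replicate 4, AFB1 replicate 2 or AFB1 replicate 3, among 140, 288 and 145. Without AFB1 replicate 2, alone or with AFB1_CUR replicate 2, edgeR called LGMN higher in AFB1 than in CON, among 231 and 275. Fits that left out 1 library also called IFNGR1 in AFB1 against CON (without AFB1 replicate 5, among 470). In AFB1_CUR against AFB1 they called ERAP2 (without AFB1_CUR replicate 2, among 217) and SOCS1 (without AFB1 replicate 5, among 234). In AFB1_CUR against CON they called MARCHF1 higher without CON replicate 2 (among 277), and MARCHF1 and IFNGR1 higher without AFB1_CUR replicate 1 (among 335). These genes are named after their values were seen. Between AFB1_CUR and CON 1 of the 44 was called, where 1.75% of all tested genes were, and a count of 1 is too small to tell from that share. CD86, a costimulatory ligand of antigen-presenting cells, was higher (log2 fold change 1.07, SE 0.45, unadjusted p = 0.0320, edgeR adjusted p = 0.816). CD86 was at 0.960, 1.40, 1.16, 0.394 and 0.610 FPKM in CON and at 1.20, 4.46, 1.14, 2.25 and 1.20 in AFB1_CUR, so the groups overlapped, and without AFB1_CUR replicate 2 it was not called (0.66, unadjusted p = 0.133). Its call was also lost, with the fold change closer to that of the main fit, without CON replicate 4 (0.89), CON replicate 5 (0.96) or AFB1_CUR replicate 4, and it was not called in limma on log2(FPKM + 1).

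The upstream and processing genes described next were not called in any of the 3 comparisons with the 14 libraries. IRF1, an interferon-induced activator of class I route genes, averaged 13.5 ± 5.12 FPKM in CON (SD, n = 5), 14.8 ± 6.57 in AFB1 (n = 4) and 13.5 ± 4.14 in AFB1_CUR (n = 5). CTSS, the cathepsin that trims the invariant chain, averaged 27.7 ± 10.5, 40.4 ± 24.5 and 40.2 ± 25.2, and its log2 fold change of AFB1 against CON was 0.52 (SE 0.38). RFX5, a promoter-binding partner of CIITA, IFI30, a lysosomal thiol reductase, ERAP1, a peptide-trimming aminopeptidase, and the proteasome activator subunits PSME1 and PSME2 had log2 fold changes between -0.24 and 0.41 in the 3 comparisons. With all 15 libraries PSME1 (-0.87, unadjusted p = 0.02999) and PSME2 (-0.77, unadjusted p = 0.0284) were called lower in AFB1_CUR than in AFB1, as was IFNGR2 of the pathway list, among 543 of all tested genes, 460 of them lower. CTSB and IFNGR2 were called higher in AFB1 than in CON in that fit, among 669. IFNG itself missed the expression filter.

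The coactivators were compared with the genes they are known to act on over the 14 libraries, using log2(FPKM + 1). Permutation tests were run on 24 planned pairs, and 22 pairs had an adjusted permutation p under 0.05. Among all tested genes 11.3% had an r over 0.8 with CD74 and 8.01% with TAP1, so a high r is not particular to the planned pairs. NLRC5 and TAP1 had a Pearson r of 0.96 and a Spearman coefficient of 0.95, and both permutation p were 1e-05, the smallest that 100000 resamples can give (adjusted, 2.4e-05 and 4.8e-05). The r was 0.93 without the 2 libraries farthest from the median of NLRC5, and 0.97 after group means were removed. CIITA and CD74 had an r of 0.90 (permutation p = 1e-05) and a Spearman coefficient of 0.90 (permutation p = 4e-05), and the r was 0.79 without the 2 libraries farthest in CIITA, which are those high in B cell genes (adjusted permutation p = 0.00211). CIITA and the DR alpha chain LOC101109747 had an r of 0.75 and a Spearman coefficient of 0.83 (adjusted permutation p of 0.00227 and 0.000669). Without the same 2 libraries r was lower, at 0.57, and narrowly missed 0.05 (adjusted permutation p = 0.0575).

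Other class I route genes also followed NLRC5. Its r was 0.94 with TAP2, 0.90 with PSMB9 and 0.88 with B2M (Spearman 0.91, 0.82 and 0.84, adjusted permutation p at most 0.000103 for r and 0.00078 for Spearman), and r ran from 0.79 to 0.90 without the farthest libraries. With LOC101107641, the most abundant heavy chain row of the set, r was 0.57 and the Spearman coefficient 0.53 (adjusted permutation p of 0.0325 and 0.0587), and r was 0.37 without the farthest libraries. IRF1 and TAP1 had an r of 0.95 and a Spearman coefficient of 0.93 (adjusted permutation p of 2.4e-05 and 8e-05), and r was 0.94 without the farthest libraries. Such relations are between libraries and do not separate regulation within a cell from the number of cells.

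CD74 also followed leukocyte genes. Its r was 0.92 with PTPRC, the pan-leukocyte antigen CD45, 0.93 with CSF1R, a macrophage receptor, and 0.94 with CD3E, a T cell receptor subunit (Spearman 0.84, 0.79 and 0.95, adjusted permutation p at most 4.36e-05 for r and 0.00165 for Spearman), and each of the 3 stayed at 0.82 or above among the 12 libraries without AFB1 replicate 2 and AFB1_CUR replicate 2. For MS4A1, the B cell antigen CD20, those 2 libraries formed a cluster of their own, at 7.57 and 46.3 FPKM against 0.0263 to 0.983, and among the other 12 libraries r was 0.35 (permutation p = 0.270). B2M had an r of 0.84 and a Spearman coefficient of 0.93 with CD3E (adjusted permutation p of 0.000296 and 4.8e-05), and an r of 0.68 among the same 12 libraries.

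**Figure D4:**
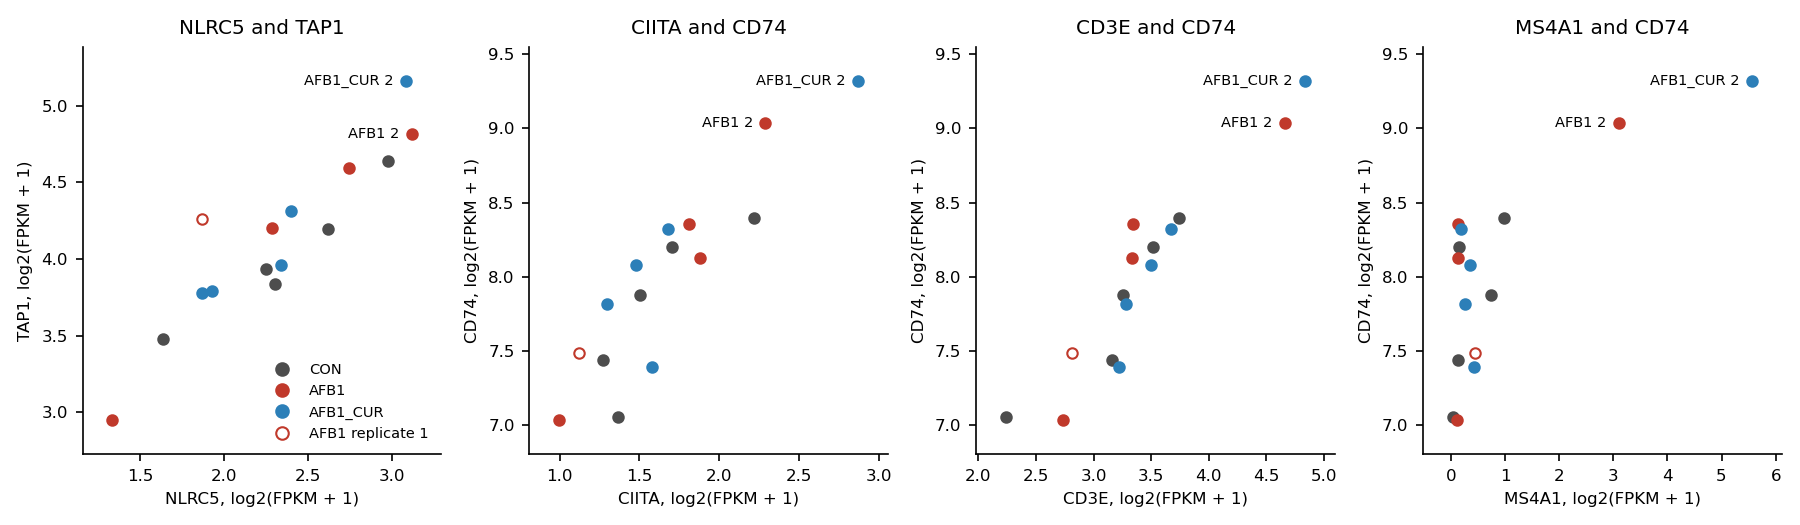
NLRC5 and TAP1, CIITA and CD74, CD3E and CD74, and MS4A1 and CD74, each point a library on log2(FPKM + 1) axes, coloured by group, with AFB1 replicate 1 as an open point. The relations run through the groups, r being 0.96 for NLRC5 and TAP1, while in the MS4A1 panel AFB1 replicate 2 and AFB1_CUR replicate 2 lie apart from the other libraries.

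Not all class II rows moved with DR alpha, and the ratios to it were set out by library. CD74 was at 102.5% to 306% of LOC101109747, with the highest value in AFB1_CUR replicate 1 and 154% as the next. DM alpha and DM beta were at 4.39% to 17.8% and 5.01% to 18.8% of it, again highest in AFB1_CUR replicate 1. That library had the lowest DR alpha level of the 14, 54.4 FPKM, although its DM beta level, 10.2 FPKM, lay inside the range of the other libraries (6.33 to 32.8). It also had 632 counts of LOC101114758, the most of any library, which was 4.33% of DR alpha there against 0.0358% to 1.01% in the other 13.

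The DQ rows also varied between libraries. LOC101120392, described as DQ beta, was at 37.7, 56.5, 0.514, 4.72 and 4.31 FPKM in CON, at 3.27, 11.25, 0 and 0 in AFB1, and at 0, 117, 9.29, 0.389 and 0.644 in AFB1_CUR. It had a count of 0 in 3 libraries, AFB1 replicates 4 and 5 and AFB1_CUR replicate 1, while DQA, the DQ alpha row, was at 3.87, 3.78 and 1.56 FPKM in the same 3. The DQ beta-like row LOC101118514, which contains LOC101120392, was at 5.51, 2.25 and 3.58 FPKM there. The counts of 0 therefore do not show that DQ beta was absent. High and near-absent libraries of LOC101120392 occurred in CON and AFB1_CUR alike, and its log2 fold changes had SEs of 1.75 to 2.03. DQA was at 13.9, 17.0, 9.63, 1.12 and 3.51 FPKM in CON, at 10.5, 3.49, 3.87 and 3.78 in AFB1, and at 1.56, 27.9, 2.21, 5.05 and 9.32 in AFB1_CUR. Relative to DR alpha it ranged from 0.989% to 5.79%.

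**Figure D5:**
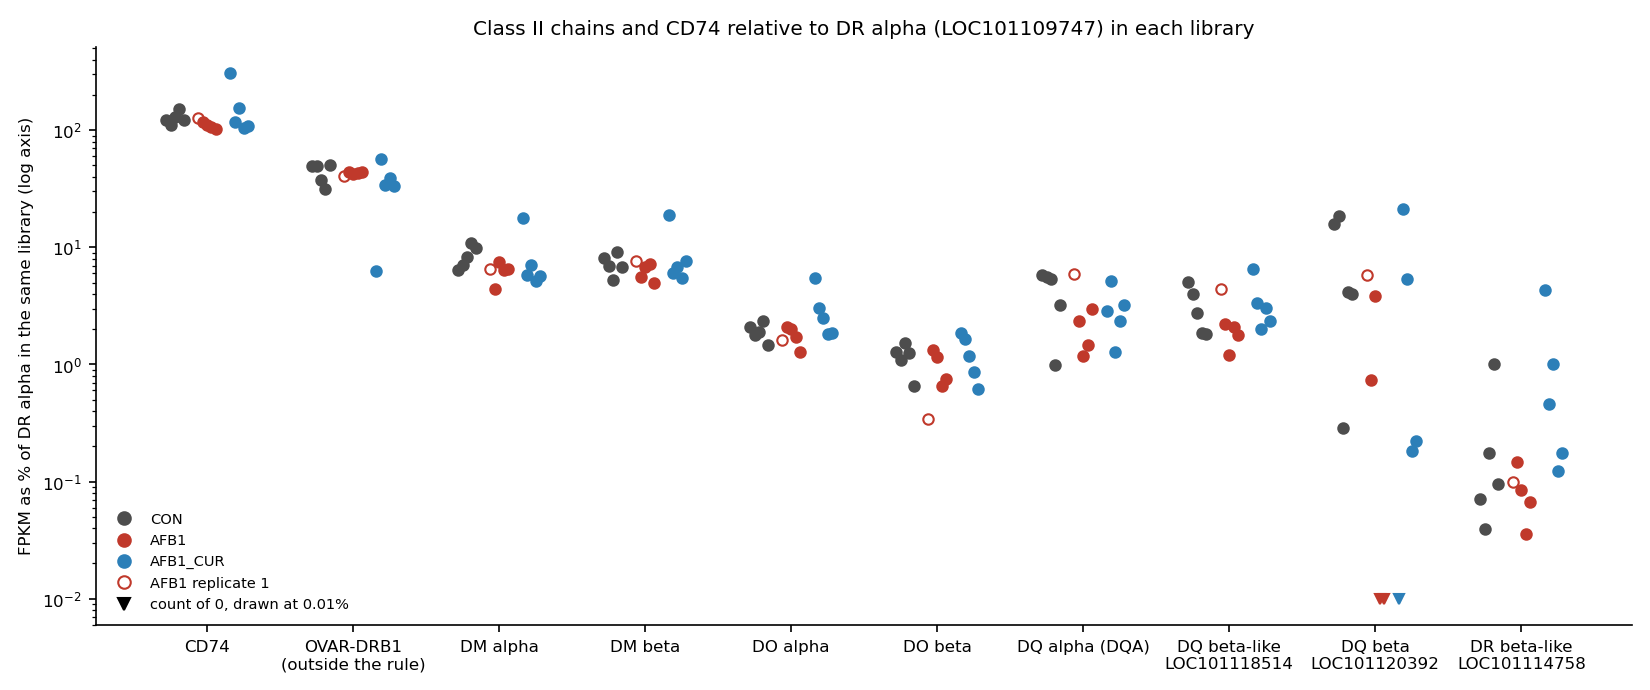
FPKM of CD74, the DR beta row OVAR-DRB1 and other class II rows as a percentage of DR alpha (LOC101109747) in the same library, on a log axis, with AFB1 replicate 1 as an open point and counts of 0 drawn as triangles at 0.01%. The ratios of the DM and DO chains and of DQ alpha span 2.99- to 5.85-fold over the 14 libraries, whereas LOC101120392 runs from 0 to 21.5% and LOC101114758 from 0.0358% to 4.33%.

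Some rows of the same families do not have the word histocompatibility in their description and so fall outside the set; 5 were found after their values had been seen. OVAR (chr20:27745369-27748539), described as a class I antigen, was above every heavy chain row of the set, with means of 310.4 ± 139 FPKM in CON (SD, n = 5), 475 ± 359 in AFB1 (n = 4) and 345 ± 133 in AFB1_CUR (n = 5). It was not highest in AFB1_CUR replicate 2 (298 FPKM) but in AFB1 replicate 2 (990.5). OVAR-DRB1 (chr20:25360247-25372236), described as a class II antigen, ranged from 3.42 FPKM in AFB1_CUR replicate 1 to 308 in AFB1_CUR replicate 2. It was at 6.30% of DR alpha in the former and at 31.4% to 56.5% in the other 13 libraries of the main fit. Neither passed the screening conditions in any comparison, and the other 3 rows, LOC101111694, LOC101105860 and LOC114109639, reached at most 15.7 FPKM.

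Finally, the patterns of CD74 and TAP1 over the 14 libraries were set against every tested gene, as a description. With CD74 the highest Pearson r of log2(FPKM + 1) outside the set were those of GNAI2 (0.99), a G protein alpha subunit, DOK1 (0.98), a docking adaptor, RELA (0.98), the p65 subunit of NF-kappaB, CYTH1 (0.97), LPCAT1 (0.97) and TNFAIP8L2 (0.97). Within the set the closest to CD74 was the DO alpha chain LOC101110545 (0.98). With TAP1 they were PSMB10 (0.97), the remaining catalytic immunoproteasome subunit, PLXDC2 (0.96), IRF1 (0.95), GRAMD1A (0.95), SFXN3 (0.95) and CEP192 (0.95), and within the set TAP2 (0.96), NLRC5 (0.96) and B2M (0.96). The median r over the other 30 tested genes of the set was 0.84 with CD74 and 0.82 with TAP1, against 0.34 and 0.36 over all tested genes. Lowest were LOC101112480 (0.02 with CD74) and MR1 (0.05), and LOC101114758, the called row, had 0.25 with CD74 and 0.21 with TAP1.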

How the data were processed

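Kidney mRNA of sheep was sequenced in 15 libraries. The submitters' processing notes name cutadapt 1.9, HISAT2 2.2.1 and StringTie 2.1.6, and no source used here gives the build. The authors deposited read counts and FPKM values for 25592 genes in 15 libraries. The library kit marks strand, but the strand setting of the counting is not stated, so overlapping genes on opposite strands are uncertain. Libraries were grouped by title.

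From there, deposited counts of 13394 genes, those reaching 1 FPKM in 4 or more of 14 libraries, were tested with edgeR 4.0.16 (TMM, glmQLFit and glmQLFTest, R 4.3.3), all 3 groups in 1 model without AFB1 replicate 1. A call needed an unadjusted p below 0.05 with a change of over 1.5-fold. After Benjamini-Hochberg adjustment 0 genes passed 0.05 in each comparison, while 670, 311 and 747 had an unadjusted p under 0.05; DESeq2 1.42.0 gave 19, 3 and 2 adjusted calls. Intervals cover 95%. Levels and correlations used deposited FPKM, as log2(FPKM + 1), with 100000 resamples per permutation test. Scripts were tested on simulated data. The study gives 5 kidney transcriptomes per group of sheep without stating that each came from a different animal, so p-values measure only the spread between these libraries, which may be technical in part.

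The alternatives were all 15 libraries, DESeq2, RLE size factors, no filter, limma 3.58.1 on log2(FPKM + 1) or log2(FPKM + 0.1), the replicate number as a block, only the compared groups, and each library left out. Named were the 9 genes chosen by symbol, the 15 histocompatibility rows with the highest mean, every called member, 8 fixed pathway genes with those called, and the 6 genes most like CD74 and TAP1. The members and lists were chosen with earlier results of these data known. Results for 1 of the fixed pathway genes, including its 3 of the 24 correlated pairs, are not reported here, though the counts of pairs include them.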

Additional observations from a re-analysis of the deposited data

Results flagged for a closer look

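In groups of 4 or 5 libraries, 6 of 72 checks found a highest or lowest library far from the rest of its group by Dixon's criterion. Chance flags about 1 in 20 where values are normal and checks independent. These genes moved together, so that rate cannot be set against the count. AFB1_CUR replicate 2 gave 3 of them. CIITA was at 6.32 FPKM there, against 1.46 to 2.21 in the rest of the group, TAPBP at 84.6 against 34.6 to 44.8, and ARHGAP45 at 21.6 against 5.07 to 6.82. DQA was at 10.5 FPKM in AFB1 replicate 2, against 3.49 to 3.87 in the other 3 libraries of the main fit. The low library was AFB1 replicate 5, where LOC101107641 was at 12.1 FPKM against 38.8 to 46.0. LOC101114758 was at 1.15 FPKM in CON replicate 4, against 0.103 to 0.316.

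AFB1 replicate 1, the library with high hepatocyte genes, was in no comparison of the main fit, and there 6 of the 31 tested genes lay above every CON library and 7 below, against 13.6% and 67.7% of all tested genes. B2M was at 476 FPKM (CON 187 to 334), TAPBP at 56.0 (35.8 to 55.8), PSMB8 at 48.4 (23.6 to 48.1), LOC101107641 at 52.7 (15.0 to 43.6), HM13 at 41.4 (22.2 to 28.1) and LOC101105609 at 16.6 (7.10 to 13.3). TAPBP and PSMB8 exceeded the highest CON library by less than 1 FPKM.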

How the results depend on the processing

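With all 15 libraries the number of MHC genes called was 1, 2 and 2 (AFB1 against CON, AFB1_CUR against AFB1, AFB1_CUR against CON) in place of 0, 1 and 1, and among all tested genes it was 669, 543 and 149 in place of 238, 133 and 235. With no filter on low values 867, 707 and 928 of all genes were called. Testing log2(FPKM + 1) in limma gave 108, 86 and 82. For AFB1_CUR against AFB1 the number of MHC genes called was 2 when log2(FPKM + 0.1) was tested in limma (145 of all genes) and 2 under the replicate block (158); for AFB1_CUR against CON it was 2 with DESeq2 (277 of all genes), with no filter (928) and with only the 2 compared groups (246). Leaving out a library at a time gave 0 to 1, 1 to 3 and 0 to 2 MHC genes, and 213 to 470, 133 to 288 and 131 to 335 of all genes. Without AFB1 replicate 2 and AFB1_CUR replicate 2, an alternative chosen after seeing the data, the MHC genes called were 2, 2 and 1, and 275, 231 and 133 of all genes. The direction turned for LOC101104866 in AFB1_CUR against CON, with log2 fold changes of -0.81 without AFB1_CUR replicate 2 (0.23 at the highest, without CON replicate 2) and -0.80 without the pair. The cause was not tested. The replicate numbers did not pair the libraries throughout. Of 13 pairs with the same number 5 had correlated deviations over 0.1 (-0.27 to 0.554), and 4 of 14 libraries correlated best with their own number. The highest were among the replicates numbered 2: 0.554 for AFB1_CUR with AFB1, 0.389 for CON with AFB1 and 0.377 for CON with AFB1_CUR. Why these deviated together was not tested. Under the block LOC101114758 was not called in AFB1_CUR against CON (1.96, unadjusted p = 0.0629) while LOC132658250 was, LOC132658253 was called in AFB1_CUR against AFB1 (1.40, unadjusted p = 0.0311), and 3 pathway genes in place of 1 were called in AFB1_CUR against CON; counts over all genes moved by less than 1.5 times. Of 24 correlations 22 passed; 17 to 22 did so under the alternatives. Among estimates of the named genes that were not called, 180 of 1815 changed sign under an alternative. With 4 or 5 libraries a group the intervals stayed wide, that of CD74 in AFB1 against CON reaching 1.21, and copies with shared reads limit single heavy chain, DQ and DR beta rows, the called LOC101114758 among them.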
